A study of Mus musculus with 6 samples.

Results

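The genes described here are 10 genes of cytotoxic lymphocytes out of 40842 reference genes in the lung tables. They were taken by symbol as granzymes, the pore-forming protein perforin and genes that identify natural killer (NK) cells, and all 10 were matched. Of these, 6 are granule or shared cytotoxic genes (Gzma, Gzmb, Gzmk, Gzmm, Prf1 and Nkg7), and 4 are NK identity genes (Ncr1, Eomes, Tbx21 and S1pr5). Whole lung polyA RNA was sequenced in 6 libraries from wild-type female C57BL/6N mice. The 3 control libraries come from mice given no treatment. The 3 irradiated libraries come from mice given a single 20 Gy dose of 9 MeV electrons. All 6 are labelled 100 days. The labels do not give the age of the mice or say which body region was exposed, and whether each library is a different mouse is not stated. The p-values therefore reflect only how far these libraries spread, which may be technical.

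NK cells and cytotoxic T cells kill target cells with granules that hold perforin, which opens the target's membrane, and granzymes, the serine proteases that enter through it. Granzymes, perforin and Nkg7 are made by NK cells and by activated CD8 T cells, while the receptor gene Ncr1 (NKp46) is largely confined to NK cells and other innate lymphoid cells. The T-box factors Eomes and Tbx21 (T-bet) drive NK maturation and also act in memory and effector T cells, and S1pr5 is a receptor through which mature NK cells leave the bone marrow and lymph nodes.

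Levels are FPKM, the deposited values scaled for transcript length and for library size. The sequence behind each library, implied by the deposited coverage, was 5.11 to 10.4 Gb, with irradiated 2 the deepest and irradiated 3 the shallowest. The tissue label was checked with 7 lung genes, whose summed level was 48399 to 61271 FPKM in the controls and 27750 to 37246 FPKM in the irradiated libraries. The 5 NK marker genes listed for the check (Klrb1c, Klrd1, Klre1, Klri2 and Klrk1) were all detected. Libraries were compared with limma on log2(FPKM + 1) over 13908 genes, those whose mean reached 1 FPKM, and a gene was called at a Benjamini-Hochberg adjusted p under 0.05.

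The level of most granule genes and of the NK receptor Ncr1 was lower in every irradiated library than in every control, while 2 granzymes overlapped between groups. Gzma was at 33.4% of its control mean, Gzmb at 45.6%, Ncr1 at 48.6%, Prf1 at 54.8%, S1pr5 at 57.2% and Nkg7 at 61.5%. In these 6 of the 10 genes every irradiated library lay below every control library. Gzmm, at 93.8% of its control mean, and Gzmk, at 124%, had groups that overlapped, as did Eomes and Tbx21. In whole tissue, fewer cells of a type and less RNA per cell cannot be told apart.

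No single gene of the 10 passed the threshold over all genes. Gzmk, Eomes and Tbx21 had a mean under 1 FPKM and were not tested, which left 7. With limma 0 of the 7 were called, where 25 of the 13908 genes (0.18%) were called in either direction, 16 lower (0.115%) and 9 higher (0.0647%). With FPKM rescaled to a common sum that split was 6 lower and 7 higher. At an unadjusted p under 0.05, 6 of the 7 were lower and 0 higher, where of all tested genes 10.3% were lower and 7.41% higher, 17.7% in either direction. The irradiated libraries lay below the controls without overlap in 6 of the 7 and above them in 0, against 14.6% and 9.91% of all tested genes. All 7 had a negative log2 change, as had 55.8% of all tested genes. The median log2 change of the 7 was −0.63, against −0.03 over all tested genes. These genes were chosen with earlier results of these data known, and the counts are given as a description. When the filter was lowered to 0.5 FPKM all 10 genes were tested. Of these, 9 had a negative change, with a median of −0.55, and 6 had an unadjusted p under 0.05 and were lower, against 9.98% of the 15398 genes. Their limma adjusted p lay between 0.101 and 0.915 in that fit.

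**Figure D1:**
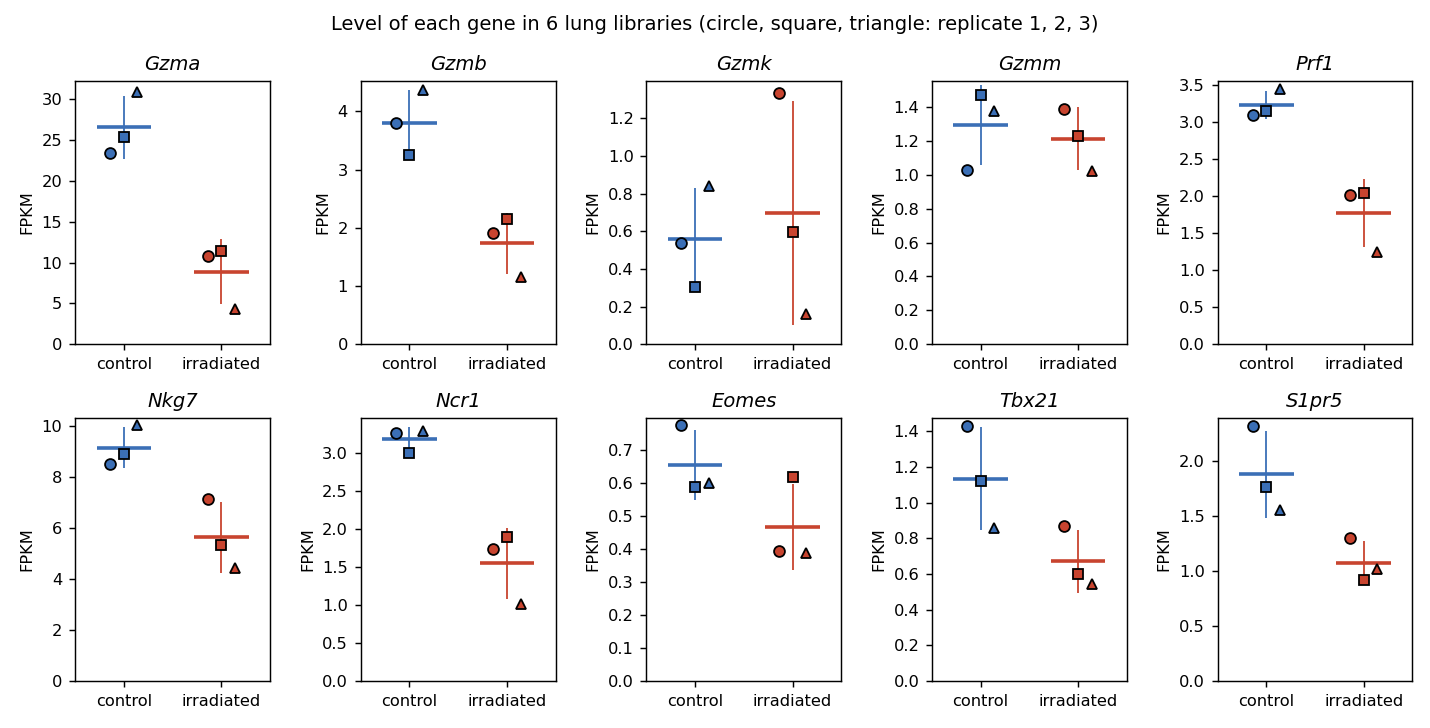
FPKM of each of the 10 genes in the 3 control (blue) and 3 irradiated (red) libraries, with the replicate shown by the symbol, the group mean as a bar and the SD as a line. Gzma, Gzmb, Prf1, Nkg7, Ncr1 and S1pr5 show no overlap between groups, while Gzmk, Gzmm, Eomes and Tbx21 overlap.

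In control lung the order of the mean levels was Gzma (26.6 FPKM), Nkg7 (9.16), Gzmb (3.80), Prf1 (3.22), Ncr1 (3.18), S1pr5 (1.88), Gzmm (1.29), Tbx21 (1.14), Eomes (0.655) and Gzmk (0.561). FPKM is a level per length, so these genes can be set side by side. The control values of Gzmb, Prf1 and Ncr1 overlapped, as did those of Gzmm and Tbx21 and those of Eomes and Gzmk. The other neighbours in this order did not overlap in the 3 control libraries.

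Gzma encodes granzyme A, a protease that cuts after basic residues, and was the most abundant of the 10. The gene lies on chromosome 13 at 113230358 to 113237515 (GRCm39, minus strand). Its level was 23.4, 25.4 and 30.9 FPKM in control 1 to 3 and 10.8, 11.5 and 4.33 FPKM in irradiated 1 to 3. Irradiated 1 and 2 were close to each other, and irradiated 3 was lower than both. The log2 change was −1.57 ± 0.33 (SE), with a limma adjusted p of 0.102. Without irradiated 3 the change was smaller (−1.17) and passed (adjusted p = 0.0338), and over all alternatives the adjusted p was 0.0338 to 0.317. Gzma overlaps Cdc20b on the opposite strand, which was at 0.0366 FPKM or less in every library.

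Gzmk, the neighbouring granzyme gene, did not follow Gzma. It lies on chromosome 13 at 113308164 to 113317499, on the same strand, 70.6 kb from Gzma with 1 other annotated gene between them. Granzyme K is a protease of effector memory CD8 T cells and of some NK cells. Its level was 0.536, 0.304 and 0.841 FPKM in control 1 to 3 and 1.34, 0.598 and 0.158 FPKM in irradiated 1 to 3. The highest and the lowest of the 6 values were thus both in irradiated lung. The mean per-base coverage behind these values was 0.807 to 7.77, so single values of Gzmk rest on few reads. With a filter of 0.5 FPKM its log2 change was 0.08 ± 0.27 (limma adjusted p = 0.915).

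Gzmb encodes granzyme B, the protease that activates caspases in the target cell. It lies on chromosome 14 at 56496293 to 56499791. Its level was 3.80, 3.25 and 4.36 FPKM in control 1 to 3 and 1.90, 2.15 and 1.15 FPKM in irradiated 1 to 3. The groups did not overlap, and irradiated 3 was again the lowest library. Its log2 change was −0.83 ± 0.18 (limma adjusted p = 0.102). Genes of the same granzyme cluster were near or at 0: Gzmc reached 0.0520 FPKM at most and Gzmd 0.0507 FPKM, and Gzme, Gzmf, Gzmg and Gzmn were listed at 0 in all 6 libraries. No stretch of 50 bases of the Gzmb transcript occurred in a transcript of another gene in GENCODE M21, and the same held for every other gene of the 10 except Eomes, of whose stretches 0.386% were shared.

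Gzmm encodes granzyme M, known in human and mouse as a granzyme of NK cells and other innate-like lymphocytes. It lies on chromosome 10 at 79524854 to 79531095. Its level was 1.02, 1.47 and 1.38 FPKM in control 1 to 3 and 1.39, 1.23 and 1.02 FPKM in irradiated 1 to 3. The 2 groups covered nearly the same range. The log2 change was −0.05 ± 0.15 (limma adjusted p = 0.895), and its sign turned under 4 of the alternatives, the rescaling to a common sum among them (0.024). Coverage was 5.20 to 8.42 per base.

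Prf1 encodes perforin and lies on chromosome 10 at 61133530 to 61140463. Its level was 3.08, 3.15 and 3.44 FPKM in control 1 to 3 and 2.02, 2.04 and 1.24 FPKM in irradiated 1 to 3. The controls were within a narrow range, and the irradiated libraries lay below it. For Prf1 the log2 change was −0.62 ± 0.15 (limma adjusted p = 0.127).

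Nkg7 encodes a granule membrane protein needed for efficient granule release, and lies on chromosome 7 at 43086562 to 43087670. Its level was 8.51, 8.91 and 10.0 FPKM in control 1 to 3 and 7.13, 5.34 and 4.43 FPKM in irradiated 1 to 3. Irradiated 1 was the closest to the controls. The log2 change was −0.63 ± 0.16 (limma adjusted p = 0.131).

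Ncr1 is the gene of the 10 that is most restricted to NK cells, and lies on chromosome 7 at 4340714 to 4348183. Its level was 3.27, 2.99 and 3.28 FPKM in control 1 to 3 and 1.73, 1.90 and 1.01 FPKM in irradiated 1 to 3. The irradiated libraries were all under 2 FPKM and the controls all close to 3 FPKM. For Ncr1 the log2 change was −0.73 ± 0.16 (limma adjusted p = 0.109).

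S1pr5, the sphingosine 1-phosphate receptor of NK egress, lies on chromosome 9 at 21154213 to 21159739. Its level was 2.32, 1.77 and 1.56 FPKM in control 1 to 3 and 1.30, 0.918 and 1.01 FPKM in irradiated 1 to 3. The gap between the groups was small relative to the spread of the controls, and irradiated 2, not irradiated 3, was the lowest. The log2 change was −0.47 ± 0.16 (limma adjusted p = 0.205), and it was −0.75 on the log2(FPKM + 0.1) scale. The related receptors S1pr1 and S1pr4, named after their values were seen, had levels of 71.4 ± 16.7 against 82.7 ± 14.7 FPKM and of 7.61 ± 0.178 against 7.13 ± 0.732 FPKM (mean ± SD, n = 3 per group, limma adjusted p = 0.601 and 0.694).

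Tbx21 lies on chromosome 11 at 96988833 to 97006157. Its level was 1.43, 1.12 and 0.857 FPKM in control 1 to 3 and 0.872, 0.600 and 0.543 FPKM in irradiated 1 to 3. Control 3 and irradiated 1 were nearly equal, and the other irradiated libraries were below all controls. With the filter at 0.5 FPKM its log2 change was −0.35 ± 0.15 (limma adjusted p = 0.294).

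Eomes lies on chromosome 9 at 118307254 to 118315200. Its level was 0.776, 0.588 and 0.600 FPKM in control 1 to 3 and 0.395, 0.618 and 0.387 FPKM in irradiated 1 to 3. Irradiated 2 lay within the controls, and the other irradiated libraries lay below them. With the filter at 0.5 FPKM the log2 change was −0.18 ± 0.12 (limma adjusted p = 0.501). Coverage of Eomes was 1.98 to 6.37 per base. Gm33408, which overlaps Eomes on the opposite strand, was at 0.0562 FPKM or less.

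Irradiated 3 had the lowest value of all 6 libraries in 9 of the 10 genes, the exception being S1pr5. The highest irradiated value was in irradiated 1 for 5 genes and in irradiated 2 for 5. Summed over the 10 genes, the level was 48.1, 49.0 and 57.3 FPKM in control 1 to 3 and 28.9, 26.9 and 15.3 FPKM in irradiated 1 to 3, with Gzma the largest part. The lower sum of irradiated 3 thus held for both granule and identity genes, at 27.6% and 43.2% of the control mean. Irradiated 3 was also the library with the least sequence, and the part of depth in this was not tested.

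Promoter windows are shown for 7 of the genes because they set the 6 genes whose groups did not overlap (Gzma, Gzmb, Prf1, Nkg7, Ncr1 and S1pr5) beside Gzmk, the neighbour of Gzma whose groups did. Each runs from 250 bases before to 50 bases after a RefSeq start site, in the direction of transcription, and comes from the RefSeq table of the GRCm38.p6 build, whose coordinates differ from those given above. Capitals mark matches on either strand to the T-box core GTGTGA, the kind of site that Eomes and Tbx21 bind, and to the Runx core TGTGGT.
Gzma (chr13:113100932-113101231, minus strand): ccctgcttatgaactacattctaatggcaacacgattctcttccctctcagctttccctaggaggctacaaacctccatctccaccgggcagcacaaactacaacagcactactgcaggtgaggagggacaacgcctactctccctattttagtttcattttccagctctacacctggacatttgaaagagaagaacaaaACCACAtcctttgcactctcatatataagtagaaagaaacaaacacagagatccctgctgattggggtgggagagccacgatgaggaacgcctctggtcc
Gzmk (chr13:113180916-113181215, minus strand): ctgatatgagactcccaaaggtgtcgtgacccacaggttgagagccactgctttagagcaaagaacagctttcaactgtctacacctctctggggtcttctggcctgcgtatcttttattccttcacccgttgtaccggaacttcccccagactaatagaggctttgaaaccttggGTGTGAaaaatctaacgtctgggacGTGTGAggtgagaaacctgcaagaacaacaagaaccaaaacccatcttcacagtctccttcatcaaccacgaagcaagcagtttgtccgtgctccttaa
Gzmb (chr14:56262285-56262584, minus strand): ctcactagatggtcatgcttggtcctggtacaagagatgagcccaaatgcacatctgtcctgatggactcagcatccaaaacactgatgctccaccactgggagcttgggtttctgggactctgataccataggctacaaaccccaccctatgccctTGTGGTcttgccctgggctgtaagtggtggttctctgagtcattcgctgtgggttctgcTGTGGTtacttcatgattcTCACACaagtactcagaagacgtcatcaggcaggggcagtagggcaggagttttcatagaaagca
Prf1 (chr10:61297586-61297885, plus strand): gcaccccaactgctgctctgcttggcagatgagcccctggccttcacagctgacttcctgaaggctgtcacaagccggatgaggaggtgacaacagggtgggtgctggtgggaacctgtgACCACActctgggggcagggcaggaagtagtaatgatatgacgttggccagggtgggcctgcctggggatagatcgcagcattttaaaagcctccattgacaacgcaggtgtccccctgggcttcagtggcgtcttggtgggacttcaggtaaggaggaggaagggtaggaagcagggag
Nkg7 (chr7:43436888-43437187, plus strand): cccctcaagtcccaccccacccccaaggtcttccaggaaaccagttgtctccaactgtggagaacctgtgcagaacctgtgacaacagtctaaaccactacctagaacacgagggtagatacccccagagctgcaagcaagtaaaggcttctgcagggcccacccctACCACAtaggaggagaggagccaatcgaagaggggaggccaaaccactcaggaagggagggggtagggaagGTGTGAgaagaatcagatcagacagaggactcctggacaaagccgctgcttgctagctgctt
Ncr1 (chr7:4337465-4337764, plus strand): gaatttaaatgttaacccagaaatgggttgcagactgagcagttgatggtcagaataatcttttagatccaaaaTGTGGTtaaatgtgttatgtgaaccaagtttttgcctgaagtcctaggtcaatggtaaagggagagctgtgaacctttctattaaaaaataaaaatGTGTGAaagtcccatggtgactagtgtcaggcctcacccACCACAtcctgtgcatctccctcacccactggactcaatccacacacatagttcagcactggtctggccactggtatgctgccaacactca
S1pr5 (chr9:21248394-21248693, minus strand): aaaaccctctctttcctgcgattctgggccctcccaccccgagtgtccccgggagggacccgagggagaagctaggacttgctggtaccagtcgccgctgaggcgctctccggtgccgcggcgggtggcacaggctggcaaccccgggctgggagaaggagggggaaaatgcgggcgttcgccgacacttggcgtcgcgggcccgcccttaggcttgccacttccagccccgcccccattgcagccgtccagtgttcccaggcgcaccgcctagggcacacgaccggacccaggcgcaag

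The 10 genes have 12 windows in the table, since Ncr1 and Gzmm have 2 each. The 2 of Ncr1 overlap almost fully, starting at 4337465 and 4337474, so the same sites are counted in both. By gene, the T-box letters occurred in 5 of the 10 and the Runx letters in 6. The T-box letters occurred in 6 of the 12 windows, those of Gzmb, Gzmk and Nkg7, both of Ncr1 and the second of Gzmm, while 14.5% of all 32851 promoter windows hold them. Gzmk carried 2 matches, at −74 and −49 from the start, and the windows of Gzma, Prf1 and S1pr5 carried none. The Runx letters occurred in 7 of the 12 windows, those of Gzma, Gzmb, Nkg7 and Prf1, both of Ncr1 and the first of Gzmm, against 16.8% of all windows, and not in that of S1pr5. In the Ncr1 window printed the T-box match lay at −80 and the Runx matches at −176 and −41. The Ets core GGAAGT was found in 4 of the 12 (23.8% of all windows) and the STAT pattern TTCNNNGAA in 3 (8.30%), on both strands. No match to the T-box letters overlapped one to the Runx letters in the windows printed. A match is a stretch of letters and was not measured as a bound site.

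The comparison of NK genes with shared T cell cytotoxic genes was made within each library, as ratios of FPKM between genes. A set of 13 ratios was computed, each with a two-sided exact permutation test of 3 against 3 libraries, for which 0.10 is the smallest possible p. The p-values were adjusted over the 13, and none could pass. Gzma stood at 7.15, 8.49 and 9.41 times Ncr1 across control 1 to 3, and its ratio was 6.26, 6.05 and 4.27 across irradiated 1 to 3. Every irradiated ratio lay below every control ratio (log2 difference −0.61, exact p = 0.10, adjusted p = 0.118).

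Gzmb, of the 5 granule genes tested, had the smallest difference in its ratio to Ncr1. That ratio was 1.16, 1.08 and 1.33 across control 1 to 3, against 1.10, 1.14 and 1.13 across irradiated 1 to 3, and the groups overlapped (log2 difference −0.08, exact p = 0.50, adjusted p = 0.50). That difference was −0.15 without control 2 and −0.0022 without control 3. The ratio of Prf1 to Ncr1 was 0.944, 1.05 and 1.05 in the controls and 1.17, 1.08 and 1.22 in the irradiated libraries, a small difference without overlap (log2 difference 0.19, exact p = 0.10, adjusted p = 0.118). Nkg7 over Ncr1 overlapped between groups (log2 difference 0.37, exact p = 0.30, adjusted p = 0.325), and the difference was 0.56 without irradiated 2.

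Gzmm had the largest difference in its ratio to Ncr1 among the 5 granule genes tested. Gzmk was below the filter, and its ratio to Ncr1 was not computed. That ratio was 0.314, 0.492 and 0.419 across control 1 to 3, against 0.803, 0.647 and 1.01 across irradiated 1 to 3, above all controls (log2 difference 1.00, exact p = 0.10, adjusted p = 0.118). The 5 granule genes tested therefore ranged from a lower to a higher ratio against Ncr1, with Gzma and Gzmm at the ends. Leaving out any of the 6 libraries or adding 0.1 to each FPKM turned the sign of none of the 13 differences.

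**Figure D2:**
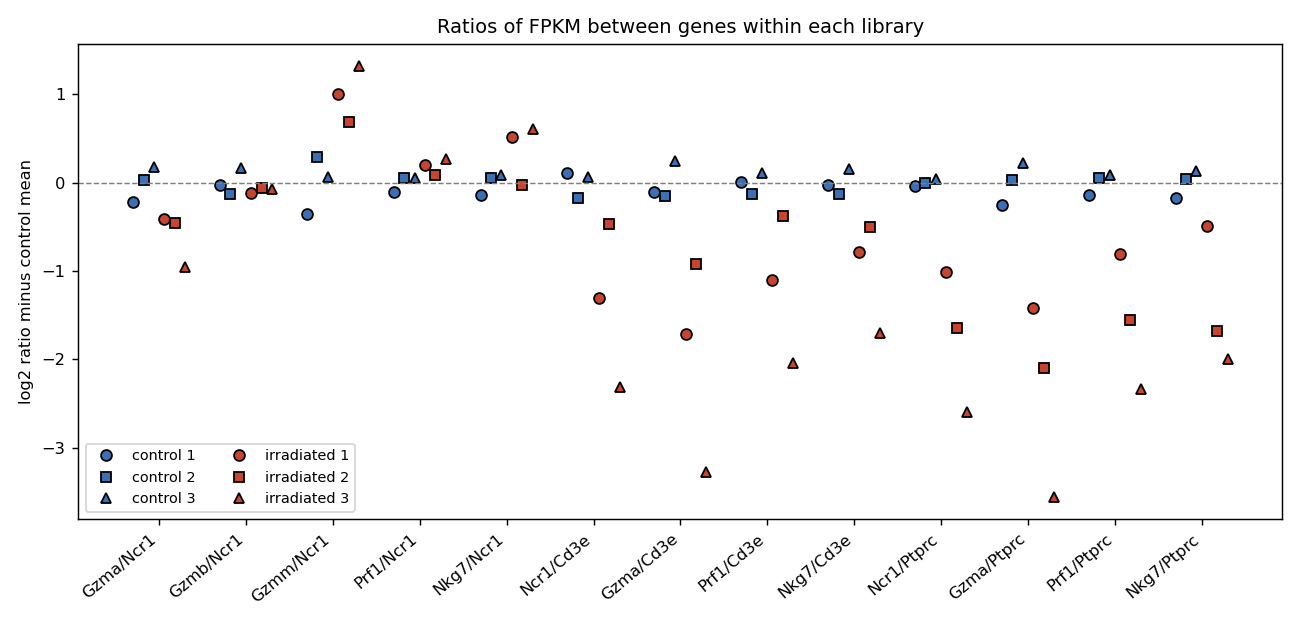
Log2 ratio of FPKM between pairs of genes in each library, minus the mean of the 3 control libraries, on a log2 axis. Symbols show the replicate and colours the group. The irradiated Gzma/Ncr1 values lie below and the Gzmm/Ncr1 values above the controls, Gzmb/Ncr1 overlaps, and all 8 ratios to Cd3e or Ptprc are below the controls.

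The ratios of Ncr1, Gzma, Prf1 and Nkg7 to the T cell gene Cd3e, the 4 computed, lay below the controls in every irradiated library. Cd3e, a chain of the T cell receptor complex, had levels of 3.29, 3.68 and 3.41 FPKM across control 1 to 3, against 4.64, 2.85 and 5.46 FPKM across irradiated 1 to 3. Irradiated 3, the lowest library in 9 of the 10 genes, thus had the highest Cd3e, and irradiated 2 had the lowest Cd3e. Among the NK markers, Klre1 and Klrb1c were lowest in irradiated 3. Klrd1, Klri2 and Klrk1 were lowest in irradiated 2. The ratio of Ncr1 to Cd3e was 0.994, 0.813 and 0.964 in the controls and 0.373, 0.665 and 0.186 in the irradiated libraries (log2 difference −1.36, exact p = 0.10, adjusted p = 0.118). For Gzma, Prf1 and Nkg7 over Cd3e the log2 differences were −1.97, −1.17 and −0.996, each with groups that did not overlap. Without irradiated 3 the differences over Cd3e were −0.89 for Ncr1, −1.32 for Gzma, −0.74 for Prf1 and −0.64 for Nkg7, and for Ncr1 and Gzma over Ptprc they were −1.33 and −1.76.

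Against Ptprc (CD45), the surface phosphatase of all leukocytes, the log2 difference was −1.75 for Ncr1, −2.36 for Gzma, −1.56 for Prf1 and −1.39 for Nkg7. Ptprc itself was at 26.6 ± 1.42 against 43.3 ± 12.3 FPKM (n = 3 per group, limma adjusted p = 0.204). Irradiated 2 and 3 had the highest Ptprc, at 49.5 and 51.3 FPKM, and these were also the libraries with the most neutrophil RNA. The summed level of 5 neutrophil markers ranged from 74.8 to 496 FPKM among controls, against 214, 4636 and 1391 FPKM for irradiated 1 to 3, and its part in the ratios to Ptprc was not tested. The 5 red cell markers summed to 1346 to 1707 FPKM among controls, against 1441, 6251 and 1609 FPKM for irradiated 1 to 3. The part of blood content was not tested either.

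Markers of the cell types that could carry these genes went different ways. Of the 5 NK markers, every one had all irradiated libraries below all controls. Klre1, Klrb1c, Klrd1 and Klrk1, lectin-like receptors of NK cells, were tested, and their median log2 change was −0.45. Klre1 was at 3.22 ± 0.7498 against 1.41 ± 0.564 FPKM (limma adjusted p = 0.142) and Klrb1c, the NK1.1 antigen, at 2.30 ± 0.203 against 1.26 ± 0.388 FPKM (limma adjusted p = 0.164). Klri2 was below the filter, at 0.773 ± 0.0592 against 0.422 ± 0.00779 FPKM. The summed NK markers were 14.1 to 14.9 FPKM in the controls and 8.65 to 9.85 FPKM in the irradiated libraries.

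The list of αβ T cell markers showed no such shift. It holds genes not particular to αβ T cells, such as the Cd3 chains, and the part of γδ T cells was not tested. Of 12 tested, 11 had a positive and 1 a negative change, with a median of 0.28, none was called by limma, and at an unadjusted p under 0.05 only Cd6 was higher (1.61 ± 0.151 against 2.89 ± 0.934 FPKM). The coreceptor chains Cd8a and Cd8b1, named after their values were seen, had levels of 3.15 ± 0.404 against 3.20 ± 1.12 FPKM and of 4.09 ± 0.520 against 4.25 ± 1.47 FPKM (limma adjusted p = 0.987 and 0.977). The list summed to 54.7 to 66.7 FPKM among controls, against 76.4, 50.5 and 97.9 FPKM for irradiated 1 to 3. All 4 γδ T cell genes had positive changes with every irradiated library above every control, as had 9.91% of all tested genes. The median of the 4 was 0.86, and none of them was called (limma adjusted p 0.0793 to 0.121). Their sum was 4.91 to 5.46 FPKM in the controls and 9.63 to 15.8 FPKM in the irradiated libraries. The 4 B cell markers had negative changes with a median of −0.45, with 0 called by limma and 0 at an unadjusted p under 0.05.

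**Figure D3:**
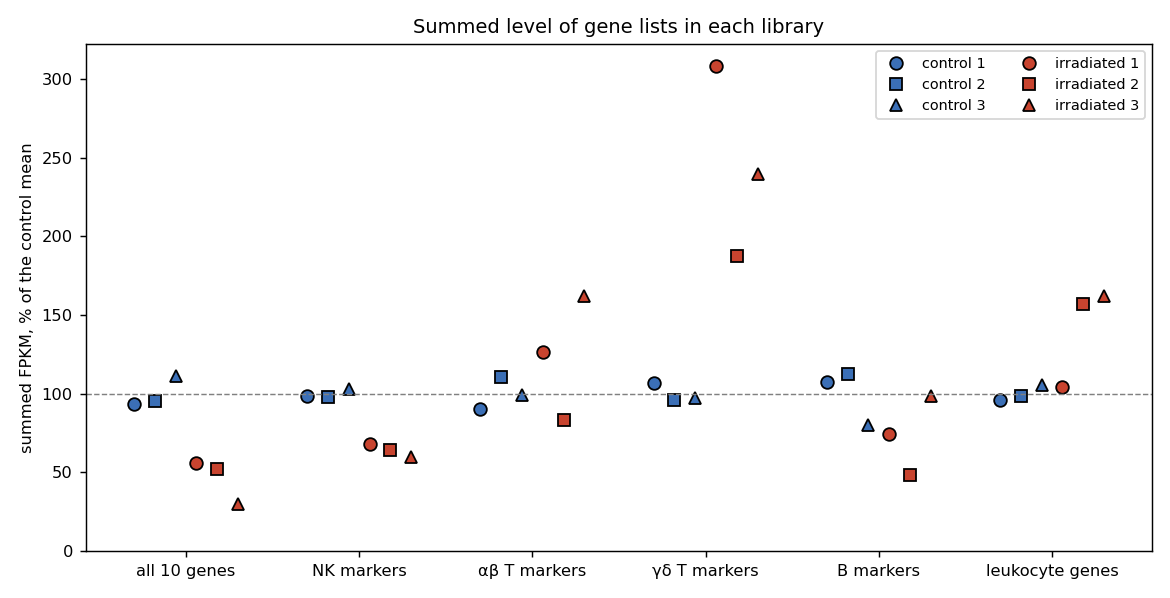
Summed FPKM of gene lists in each library as a percent of the mean of the 3 controls (dashed line). The 10 genes (29.7 to 56.2%) and the NK markers (59.9 to 68.2%) lie below the controls in all irradiated libraries, while αβ T markers (83.5 to 162%) span the controls and γδ T markers (188 to 309%) lie above.

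Mast cells, basophils and plasmacytoid dendritic cells can also carry granzyme B, and none of their marker genes was at 0 in all libraries. The 7 mast and basophil markers were all below the filter, with a sum of 2.87 to 5.43 FPKM in the controls and 2.17 to 4.51 FPKM in the irradiated libraries. The 4 plasmacytoid dendritic markers summed to 6.90 to 23.7 and 3.43 to 13.7 FPKM. Cox6a2 was the largest part of that sum, at 13.0 ± 8.68 against 8.26 ± 4.76 FPKM. Siglech, Ccr9 and Pacsin1 were below the filter, so the sum mostly follows 1 gene. The part of these cell types in the Gzmb values was not tested.

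Other granule genes had changes in both directions. Of 12 tested, 7 had negative and 5 positive changes, with a median of −0.06, and limma called 0, with 1 lower and 1 higher at an unadjusted p under 0.05. These were Ctsw, the lymphocyte cathepsin W (4.72 ± 0.147 against 3.18 ± 0.624 FPKM, limma adjusted p = 0.162), and Lyst, the regulator of lysosome-related organelles mutated in Chediak-Higashi syndrome (2.77 ± 0.136 against 4.98 ± 1.49 FPKM, limma adjusted p = 0.170). Serpinb9, an inhibitor of granzyme B, was at 38.1 ± 2.21 against 30.3 ± 6.54 FPKM, and Srgn, the proteoglycan that packs granzymes and is also abundant in myeloid cells, at 74.8 ± 18.9 against 133 ± 63.4 FPKM (limma adjusted p = 0.295 and 0.306). Ctsw overlaps Fibp on the opposite strand, and reads of the pair may be mixed, since it is not given whether counting used strand.

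Transcription factors that act with Eomes and Tbx21 were mixed. Of 10 tested, 3 had negative and 7 positive changes, with a median of 0.08, and limma called 0, with 1 lower and 1 higher at an unadjusted p under 0.05. Ets1, needed for NK development and also expressed in T cells and endothelium, was at 49.0 ± 0.979 against 39.0 ± 2.42 FPKM (log2 change −0.33 ± 0.08, limma adjusted p = 0.133). Nfil3, needed early for NK commitment, was at 1.83 ± 0.846 against 5.38 ± 3.18 FPKM (limma adjusted p = 0.234). Id2 was at 54.8 ± 8.60 against 41.8 ± 7.99 FPKM and Runx3 at 1.26 ± 0.187 against 1.81 ± 0.320 FPKM (limma adjusted p = 0.298 and 0.326).

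Other receptors and adaptors of NK cells, many of them shared with other leukocytes, had mostly positive changes. Of 16 tested, 12 had positive and 4 negative changes, with a median of 0.21, and limma called 0, with 4 higher and 0 lower at an unadjusted p under 0.05. The Fc receptor Fcgr3 (14.8 ± 1.96 against 32.6 ± 13.4 FPKM) and the integrin Itgam (5.18 ± 0.874 against 16.1 ± 9.87 FPKM) are abundant on myeloid cells. Cd244a (1.97 ± 0.190 against 4.19 ± 1.65 FPKM) is the receptor 2B4, and Zap70 (3.25 ± 0.280 against 5.40 ± 1.67 FPKM) is a kinase of T and NK cells. The adjusted p of these 4 lay between 0.144 and 0.207. Il2rb, the receptor chain through which NK cells receive IL-15, was chosen after seeing its level of 5.58 ± 0.459 against 6.22 ± 0.652 FPKM (limma adjusted p = 0.579).

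Of the cytokines and receptors that support NK cells, 6 of 10 tested had negative and 4 positive changes, with a median of −0.09, and limma called 0, with 1 lower and 2 higher at an unadjusted p under 0.05. Il12rb2, a chain of the IL-12 receptor, was at 2.63 ± 0.368 against 1.66 ± 0.129 FPKM (limma adjusted p = 0.163). The other chain, Il12rb1, went the other way, at 0.221 ± 0.0555 against 0.578 ± 0.00582 FPKM. It was below the filter, not tested, and named after its values were seen. Il18rap, a chain of the IL-18 receptor that neutrophils express as well, was at 2.63 ± 0.552 against 8.20 ± 4.31 FPKM, and Il18 at 4.46 ± 1.43 against 6.57 ± 0.911 FPKM (limma adjusted p = 0.205 and 0.280). Il15, the survival cytokine of NK cells, was chosen after seeing its level of 4.04 ± 0.815 against 3.82 ± 1.01 FPKM (limma adjusted p = 0.880).

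Effector ligands and cytokines had negative changes, of about the size of the granule genes. All 6 tested had negative changes, with a median of −0.59, and in 5 of them the irradiated libraries lay below the controls, as in 14.6% of all tested genes. With limma 0 were called and 3 were lower at an unadjusted p under 0.05. Tnfsf10 (TRAIL), a death ligand of liver-type NK cells and of other cells, was at 32.0 ± 4.86 against 16.4 ± 3.83 FPKM (log2 change −0.94 ± 0.18, limma adjusted p = 0.0844). The chemokine Ccl5, made by NK and T cells, was at 27.5 ± 4.57 against 19.3 ± 3.61 FPKM, and Ccl3 at 3.68 ± 3.15 against 0.793 ± 0.401 FPKM (limma adjusted p = 0.205 and 0.232). Csf2 was at 1.81 ± 0.417 against 1.19 ± 0.201 FPKM (limma adjusted p = 0.313). The genes of this list below the filter are named outside the rule given below. Ifng, the main NK cytokine, was at 0.151 ± 0.0639 against 0.166 ± 0.0687 FPKM, and Fasl at 0.770 ± 0.242 against 0.625 ± 0.0666 FPKM. Lta was at 0.232 ± 0.101 against 0.375 ± 0.323 FPKM and Xcl1 at 0.469 ± 0.286 against 0.243 ± 0.165 FPKM.

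Trafficking genes had mostly positive changes, with 8 positive and 2 negative changes of 10 tested and a median of 0.25. Limma called 0, with 1 higher at an unadjusted p under 0.05. That gene was Cxcl10, a chemokine that draws cells with Cxcr3 (1.58 ± 0.593 against 2.699 ± 0.642 FPKM, limma adjusted p = 0.253), and Cxcr3 itself was at 1.62 ± 0.139 against 2.702 ± 1.31 FPKM (limma adjusted p = 0.404).

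**Figure D4:**
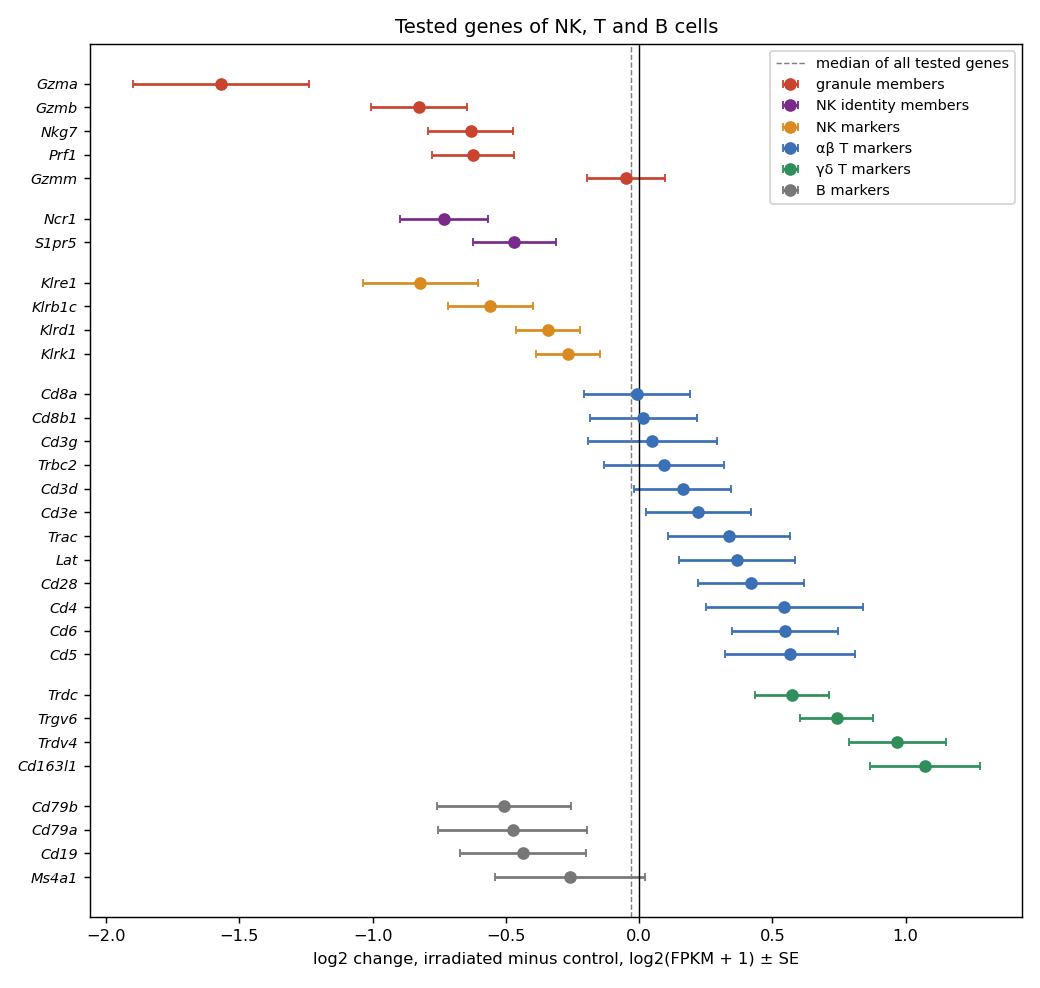
Log2 change ± SE (irradiated minus control, log2(FPKM + 1), limma, n = 3 per group) of the tested genes of the 10 and of NK, αβ T, γδ T and B cell markers. Gzma has the most negative change (−1.57), Gzmm lies near 0 (−0.05), the NK markers lie between −0.82 and −0.27, and 11 of 12 αβ T and 4 of 4 γδ T markers are above 0.

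Among the 12903 other named genes tested, the profile over the 6 libraries nearest to that of Ncr1 was that of Prf1, by root mean square difference of centred log2(FPKM + 1) (0.07). It was followed by the amino acid transporter Slc7a10 (0.07), the NK receptor Klra9 (0.08), Gzmb (0.08) and the sodium channel subunit Scn3b (0.11). Klra9 is uncertain, since other Klra genes are close copies of it, and was at 2.15 ± 0.191 against 0.820 ± 0.309 FPKM, and Slc7a10 at 15.7 ± 1.78 against 8.75 ± 1.57 FPKM. Profiles nearest to that of Gzma were further away, at 0.36 to 0.41, and belonged to Tinag, Rtp3, Stmn1, Snora43 and Hpcal4. The profiles were not scaled for the size of change, which was −1.57 for Gzma and −1.08 for Tinag. The distance therefore mixes size with shape. Over 6 libraries in 2 groups, genes of unrelated cells can share a profile.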

How the data were processed

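Per the file headers, 1 table per library lists genes by position with coverage and FPKM. Tools listed in the submitters' processing notes are STAR 2.7.6a, fastp and DESeq2, and the build listed is GRCm39. Neither the program that wrote the tables, nor the annotation, nor the strand setting is given in the sources used here. FPKM was used as deposited by the authors, and coverage (a signal per base), also deposited by the authors, served only to show depth. Without read counts no counting interval can be given.

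Rows with a gene name were kept and FPKM was summed per gene ID. Differences are irradiated minus control on log2(FPKM + 1), computed here with limma 3.58.1 in R 4.3.3 (trend and robust estimates, group as the only term), and understate changes of low genes. Ratios used FPKM directly. The procedure was tested on simulated data. Of 149 listed genes, 148 were matched. The 10 genes and the lists were chosen with earlier results of these data known. Named genes are the 10, up to 4 genes per list with the smallest p and the 5 nearest profiles, and genes outside this rule are marked. Some genes the rule takes are given by count only. The protein comparison in the design was not run, since no protein sequences were used here. Alternatives covered the pseudocount, filters, scalings, variance estimates, a replicate block and leaving out libraries. Python 3.11.15, pandas 2.3.3 and scipy 1.17.1 were used.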

Additional observations from a re-analysis of the deposited data

How the results depend on the processing

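Of the 7 tested genes, the changes of all but Gzmm kept their negative sign under every alternative run, and the only call made was Gzma without irradiated 3. Gzmm turned positive after rescaling to a common sum (0.024), and was −0.136 to 0.015 when 1 library was left out. It was positive without control 2 (0.0081), without irradiated 3 (0.015) and without control 2 and irradiated 2 together (0.0015). The common sum also moved the median of all tested genes from −0.03 to 0.08, and the median of the 7 genes relative to it was −0.61, against −0.60 as deposited. With log2(FPKM + 0.1) the median change was −0.86 for the 7 genes, −0.86 for the granule genes and −0.89 for the identity genes. With a minimum of 0.5 FPKM or none, Eomes and Tbx21 entered and the identity median was −0.41. With a minimum of 5 FPKM only 2 of the genes remained, Gzma and Nkg7, 2 of 2 negative, with a median of −1.10 for both the tested and the granule genes.

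The count of genes called over all genes was 25 as reported, 38 with a minimum of 5 FPKM, 13 with the common sum, 11 with median-ratio scaling, 0 with no filter (3531 at an unadjusted p under 0.05) and 9 without control 2 and irradiated 2. It was 0 to 118 when 1 library was left out, 0 without control 1 (1910 at an unadjusted p under 0.05), 1 without control 2, 0 without control 3 (1645), 101 without irradiated 1, 3 without irradiated 2 and 118 without irradiated 3, and 0 to 1 of the 7 genes were called. With the replicate number as a block 0 genes were called (1623 at an unadjusted p under 0.05), and no call among the 7 genes changed. Whether the numbers pair the libraries is not stated. Deviations of same-numbered libraries from their group means had correlations of −0.17, −0.54 and −0.28. With 3 libraries per group these values cannot settle it. All 13 ratios kept their sign. Depth limits Gzmk and Eomes most.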

Other observations

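Basophil and mast cell genes at the edge of detection differed among themselves. Mcpt8, a basophil protease, was at 0.564 ± 0.137 FPKM in control lung and 0.243 ± 0.129 FPKM in irradiated lung, and Ms4a2, the β chain of the IgE receptor, at 0.544 ± 0.0535 against 0.160 ± 0.122 FPKM, both with every irradiated library below every control (n = 3 per group). The mast cell carboxypeptidase Cpa3 was at 0.724 ± 0.247 against 0.925 ± 0.5002 FPKM and overlapped. None of these reached the filter or was tested, and they were named after their values were seen, out of 7 mast and basophil markers. The sum of the 7 overlapped between groups, at 2.87 to 5.43 FPKM in the controls and 2.17 to 4.51 FPKM in the irradiated libraries. The share of genes at so low a level without overlap was not computed.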
